A study of Mus musculus with 16 samples.

Results

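The Hoxb cluster is a run of 9 homeobox genes, Hoxb1 to Hoxb9, that lies within 96.8 kb on the plus strand of mouse chromosome 11. The genes were taken by symbol, and all 9 were found among the 55291 rows of the count table. Of these, 8 passed the filter on low counts and entered a test that covered 22749 genes, and Hoxb1 did not. The libraries were made from LSK cells (Lin- cKit+ Sca-1+), the bone marrow fraction that holds haematopoietic stem cells and multipotent progenitors, sorted with beads from individual C57BL/6 mice. The Asxl1Tg mice carried Asxl1Y588XTg, a transgene for a truncated Asxl1 protein. The Srsf2P95H mice carried Srsf2P95H/+, a heterozygous missense allele of a splicing factor. The double mutants (DM) carried both, Asxl1Y588XTg;Srsf2P95H/+, and the WT mice carried neither. Each group held 4 mice, although the design text of the series speaks of 3 double mutants. The sources used here give no age, sex, batch or transgene promoter.

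Hox genes encode DNA-binding transcription factors that set position along the body axis, and mammals keep them in 4 clusters. Within a cluster the order of the genes follows the order of their expression domains, with the anterior genes at the 3' end (Hoxb1) and the posterior genes at the 5' end (Hoxb9). Polycomb complexes hold silent Hox genes off and Trithorax complexes keep active ones on. Asxl1 binds the deubiquitinase Bap1, which removes the Polycomb mark on histone H2A. In blood, Hox genes are most active in stem and early progenitor cells, and HOXB4 is known for expanding stem cells when it is overexpressed.

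Library sizes ran from 82.99e6 to 127.6e6 counts, so 1 count was worth 0.00783 to 0.0120 CPM, the usual unit of counts scaled by library size, here after TMM normalization. The double mutants were on average sequenced most deeply. The Asxl1 symbol stood at 228 ± 7.94 CPM in Asxl1Tg, 226 ± 8.89 in DM and 220 ± 7.32 in WT mice, so the total count of this gene did not mark the transgene in these libraries. Kit averaged 822 CPM in Asxl1Tg, 886 in Srsf2P95H, 1042 in DM and 943 in WT, and the T cell gene Cd3e reached at most a group mean of 0.148 CPM. WT replicate 4 stood apart in mature-cell genes: its summed B lineage markers were 161 CPM, against 31.6 to 59.9 in the other 15 libraries, and its eosinophil markers 1580 CPM, against 42.8 to 486. Calls that end without this library are given with the value they then have. The total RNA of a sorted fraction cannot tell fewer cells of a type from less RNA per cell.

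The promoters of 3 members (Hoxb8, Hoxb4 and Hoxb1) are in the RefSeq table for GRCm38.p6, each covering 250 bases before the start and 50 after it. Those of Hoxb8 and Hoxb4 are shown because these members behaved most differently: Hoxb8 had the largest fold changes against WT, and Hoxb4, the most abundant member, was called in no comparison. Both are read 5' to 3' on the plus strand, Hoxb8 from chr11:96281655-96281954 and Hoxb4 from chr11:96318017-96318316. Capitals mark the letters TTTATNG, a pattern like those bound by Cdx and posterior Hox proteins, searched on both strands.
Hoxb8: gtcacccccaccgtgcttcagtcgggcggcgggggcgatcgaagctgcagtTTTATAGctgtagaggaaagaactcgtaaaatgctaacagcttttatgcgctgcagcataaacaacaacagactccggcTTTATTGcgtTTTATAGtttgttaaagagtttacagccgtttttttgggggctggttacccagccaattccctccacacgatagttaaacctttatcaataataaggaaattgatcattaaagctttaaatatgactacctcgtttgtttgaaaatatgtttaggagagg
Hoxb4: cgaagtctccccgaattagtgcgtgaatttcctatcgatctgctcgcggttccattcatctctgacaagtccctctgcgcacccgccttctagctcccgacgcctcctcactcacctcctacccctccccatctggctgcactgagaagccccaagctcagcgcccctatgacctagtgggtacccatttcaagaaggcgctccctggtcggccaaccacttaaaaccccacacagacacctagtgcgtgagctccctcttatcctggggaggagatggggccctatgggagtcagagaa
The Hoxb8 promoter holds 3 matches to TTTATNG, and the Hoxb4 promoter holds 0. Of 27025 RefSeq promoters of the same length, 11.3% hold at least 1 match and 0.0703% hold as many as Hoxb8. The Hoxb4 promoter holds 1 AGGTCA, the letters of a nuclear receptor element, which 16% of all promoters share. The promoters hold 13 CpG sites in Hoxb8 and 14 in Hoxb4, against a median of 7 over all promoters, and their GC content is 42.3% and 58% beside a median of 52.7%. These motifs were picked after the sequences were seen, and a match is a run of letters, not a measured binding site.

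The cluster also holds a microRNA gene 5' of Hoxb9, Mir196a-1, whose mature product is known for cutting the Hoxb8 transcript. Its mature strand and the Hoxb8 site are shown because the site lies in the member with the largest changes. The microRNA lies at chr11:96265187-96265208 and the site at chr11:96284888-96284909, both on the plus strand of GRCm38, with the seed (bases 2 to 8) and the letters that face it in capitals.
mmu-miR-196a-5p: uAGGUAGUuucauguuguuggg
Hoxb8 site: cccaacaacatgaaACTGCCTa
Of the 22 positions, 21 form Watson-Crick pairs, 1 is a wobble pair and 0 stay unpaired. The best windows in the transcripts of the other members leave 3 to 5 positions unpaired.

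Levels can be compared between members only per length, as CPM per kilobase of merged exon. On that scale Hoxb4 ranked first in every group, at 3.08 in Asxl1Tg, 3.39 in Srsf2P95H, 2.79 in DM and 2.98 in WT. In WT cells Hoxb3 followed at 0.630 CPM per kb (range 0.556 to 0.701), then Hoxb5 at 0.514 (0.362 to 0.659) and Hoxb6 at 0.414 (0.343 to 0.599). These neighbours in the order overlapped in their ranges, whereas Hoxb4 (2.24 to 3.75) lay clear of all of them. Hoxb2 (0.0619 to 0.341), Hoxb7 (0.0155 to 0.209), Hoxb8 (0.0182 to 0.114) and Hoxb9 (0.00932 to 0.0538) followed in WT, and Hoxb1 came last at 0.00129 CPM per kb. Hoxb2 overlapped Hoxb7, Hoxb7 overlapped Hoxb8, and Hoxb8 overlapped Hoxb9. Without overlap, Hoxb2 lay below Hoxb6, Hoxb9 below Hoxb2, and Hoxb1 below Hoxb9. Hoxb5 stood second in all 3 mutant groups, at 0.980 CPM per kb in Asxl1Tg, 1.0 in Srsf2P95H and 1.31 in DM. Hoxb8 moved up the order, to rank 5 in Asxl1Tg and DM and rank 6 in Srsf2P95H, against rank 7 in WT. Exons of Hoxb3 and Hoxb2 overlap the antisense gene Hoxb3os over 52.9% and 27.3% of their length, and Hoxb5 overlaps Hoxb5os over 3.59%. The sources used here do not say whether counting used strand, so it is not known how reads in the shared stretches were counted. The levels per length of Hoxb3 and Hoxb2 could therefore be too low or too high.

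**Figure D1:**
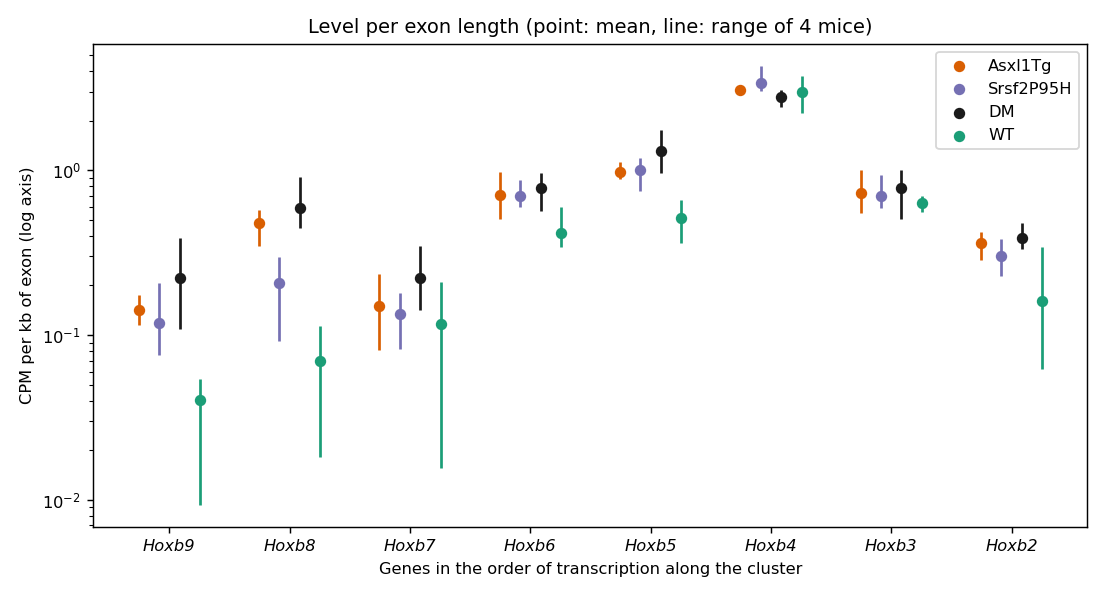
Level of each Hoxb gene in CPM per kilobase of exon, on a log axis, with members in cluster order and the groups side by side; points are means of 4 mice and lines run from the lowest to the highest mouse. Hoxb4 is highest in all 4 groups, and Hoxb8 and Hoxb9 lie higher in the mutant groups than in WT.

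Against WT, Hoxb8 and Hoxb5 were higher in Asxl1Tg and DM, and Hoxb9, Hoxb6 and Hoxb2 were higher in DM. Hoxb7, Hoxb4 and Hoxb3 were called in no group, and no member was called in Srsf2P95H. In edgeR's quasi-likelihood test with Benjamini-Hochberg adjustment over all tested genes, 5 of the 8 tested members rose in DM (Hoxb2, Hoxb5, Hoxb6, Hoxb8 and Hoxb9). For comparison, 9.39% of all tested genes were called in DM in either direction, and 4.65% were called higher. In Asxl1Tg, 2 of 8 rose (Hoxb5 and Hoxb8), beside 1.88% of all tested genes called and 1.12% called higher. In Srsf2P95H, 0 of 8 were called, beside 0.506% of all tested genes. The median log2 fold change of the 8 members was 1.10 in DM, 0.85 in Asxl1Tg and 0.84 in Srsf2P95H, against medians over all tested genes of -0.02, -0.04 and -0.05. The fold changes were above 0 for 7 of 8 members in DM and for 8 of 8 in each single mutant, where 47.6%, 44.7% and 45.0% of all tested genes were above 0. These 3 comparisons share the same WT mice, so they are not separate evidence.

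**Figure D2:**
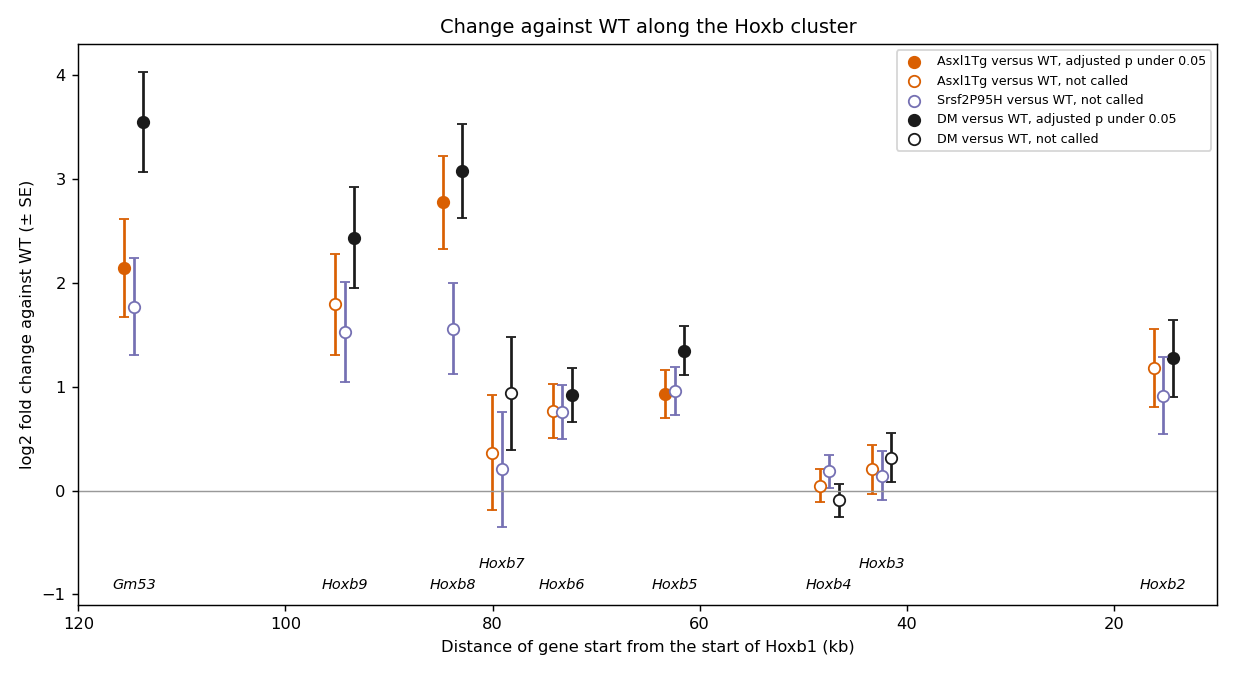
Log2 fold change of each tested Hoxb gene against WT (vertical axis, with bars of ± SE) and of the neighbouring non-coding gene Gm53 by the distance of its start from the start of Hoxb1 in kb (horizontal axis), for Asxl1Tg, Srsf2P95H and DM; filled symbols have an adjusted p under 0.05 in edgeR's test. Among the Hoxb genes the highest values sit at Hoxb8, 83.8 kb from Hoxb1, and in Asxl1Tg and DM the values nearest 0 sit at Hoxb4, 47.5 kb from it.

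Hoxb9, the most posterior member measured and a gene of thoracic patterning, starts 94.3 kb from Hoxb1 (GRCm38 chromosome 11, 96271457 to 96276595). It had 0.335, 0.296, 0.390 and 0.447 CPM in the Asxl1Tg mice, 0.270, 0.218, 0.536 and 0.196 in the Srsf2P95H mice, 0.279, 0.538, 1.0 and 0.477 in the DM mice, and 0.139, 0.0240, 0.118 and 0.136 in the WT mice. All 12 mutant libraries lay above all 4 WT libraries, which held 2 to 15 counts of this gene. Groups did not overlap, with the mutant group higher, for 3.7% of all tested genes in Asxl1Tg, 8.33% in Srsf2P95H and 9.28% in DM. The share of genes with all 12 mutant libraries above WT was not counted. The Hoxb9 log2 fold change was 2.44 in DM (SE 0.49, edgeR adjusted p = 0.00965), a 5.41-fold rise. The values in Asxl1Tg (1.79, SE 0.48, edgeR adjusted p = 0.0625) and in Srsf2P95H (1.53, SE 0.48, edgeR adjusted p = 0.0793) did not pass.

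Hoxb8, known for blocking myeloid differentiation when it is forced on, lies at 96281905 to 96285315 and gave the largest fold change of the tested members in every mutant group. Its levels were 0.911, 1.40, 1.5 and 1.25 CPM in the Asxl1Tg mice, 0.530, 0.241, 0.779 and 0.619 in the Srsf2P95H mice, 1.23, 1.18, 2.41 and 1.42 in the DM mice, and 0.300, 0.0480, 0.141 and 0.244 in the WT mice. The Asxl1Tg and DM libraries all lay above every WT library, as held for 3.7% and 9.28% of all tested genes. In Srsf2P95H 1 library fell within the WT range. These values rest on 87 to 139 counts in Asxl1Tg, 21 to 77 in Srsf2P95H, 129 to 303 in DM and 4 to 27 in WT. Hoxb8 rose 6.85-fold in Asxl1Tg (log2 2.78, SE 0.45, edgeR adjusted p = 0.00512) and 8.45-fold in DM (log2 3.08, SE 0.45, edgeR adjusted p = 0.00168). The Srsf2P95H value of 1.56 (SE 0.44) missed the threshold in edgeR's test (adjusted p = 0.0649).

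Hoxb7, overexpressed in several human cancers, lies between Hoxb8 and Hoxb6 and was called in no comparison in edgeR's test. It averaged 0.233 ± 0.0995 CPM in Asxl1Tg, 0.207 ± 0.0800 in Srsf2P95H, 0.345 ± 0.133 in DM and 0.180 ± 0.137 in WT (SD, n = 4 each). The WT libraries alone ran between 0.0240 and 0.323 CPM, which covers most of the mutant values. Its log2 fold change in DM was 0.94 (SE 0.54, edgeR adjusted p = 0.254), while limma-voom, which weights libraries by quality, gave Hoxb7 a value of 1.74 (adjusted p = 0.0483).

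Hoxb6, whose forced expression in mouse marrow expands early progenitors and holds back red cell formation, averaged 1.38 ± 0.414 CPM in Asxl1Tg, 1.38 ± 0.228 in Srsf2P95H, 1.54 ± 0.316 in DM and 0.813 ± 0.243 in WT. Its WT libraries stood at 0.681, 0.720, 0.674 and 1.18 CPM, and WT replicate 4 overlapped all the mutant groups. It rose 1.89-fold in DM (log2 0.92, SE 0.26, edgeR adjusted p = 0.0389). That call ended when any 1 of WT replicates 1 to 3 or any 1 of the DM libraries was left out, with adjusted p up to 0.0977 over all the alternatives. Without WT replicate 4 the Hoxb6 log2 value was 1.15 (edgeR adjusted p = 0.0228). The log2 values of 0.77 in Asxl1Tg and 0.76 in Srsf2P95H did not pass edgeR's test (adjusted p = 0.109 and 0.0939).

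Hoxb5, known as a marker of long-term repopulating stem cells in mouse marrow, lies at 96303336 to 96306121. It had 2.45, 2.88, 3.11 and 2.49 CPM in the Asxl1Tg mice, 2.07, 3.08, 3.29 and 2.73 in the Srsf2P95H mice, 3.82, 3.21, 4.88 and 2.68 in the DM mice, and 1.84, 1.01, 1.21 and 1.67 in the WT mice. Every mutant library was above every WT library. Taken by group, such separation held for 3.7% of all tested genes in Asxl1Tg, 8.33% in Srsf2P95H and 9.28% in DM. Hoxb5 rose 2.55-fold in DM (log2 1.35, SE 0.23, edgeR adjusted p = 0.00432) and 1.90-fold in Asxl1Tg (log2 0.93, SE 0.23, edgeR adjusted p = 0.0488). The Asxl1Tg call lay at the threshold and ended in 16 of 29 alternative fits, 11 of them with 1 library left out. These were Asxl1Tg 1, 3 and 4, Srsf2P95H 2, 3 and 4, DM 1 and 2, and WT 2, 3 and 4, and the Hoxb5 log2 values were then 0.80 to 1.01. The Srsf2P95H value of 0.96 (SE 0.23) was of the same size but just missed it (edgeR adjusted p = 0.0546), and the difference between the single mutants was not tested.

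**Figure D3:**
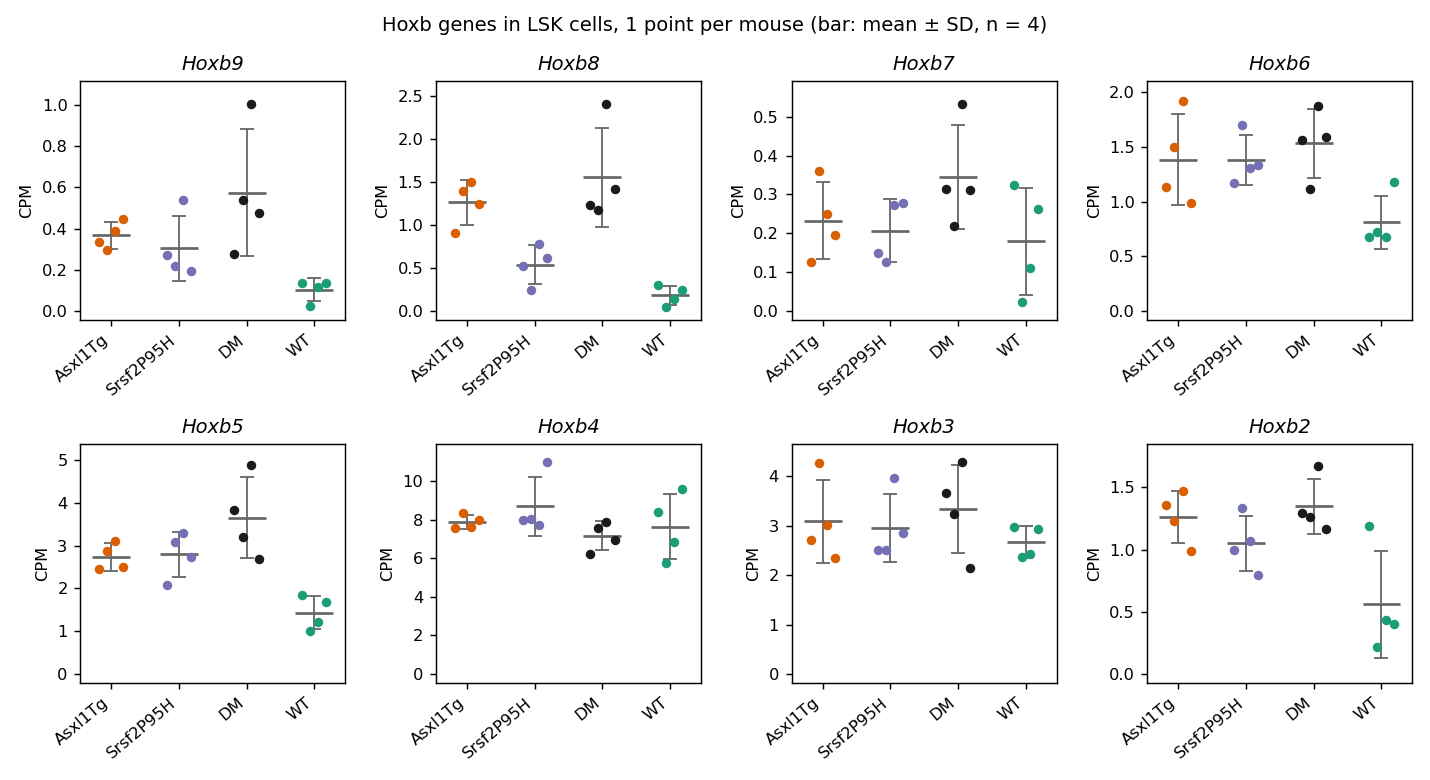
CPM of each Hoxb gene in each mouse (dots) with the group mean and SD (bars), groups in the order Asxl1Tg, Srsf2P95H, DM, WT and 4 mice each. For Hoxb5, Hoxb8 and Hoxb9 the DM dots lie above all WT dots, as held for 9.28% of all tested genes. The 4 groups of Hoxb4 and Hoxb3 overlap.

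Hoxb4, the member best known in blood stem cells, had 7.60, 8.38, 7.61 and 8.01 CPM in the Asxl1Tg mice, 7.99, 8.06, 7.74 and 11 in the Srsf2P95H mice, 6.21, 7.59, 7.91 and 6.97 in the DM mice, and 8.43, 5.74, 6.85 and 9.61 in the WT mice. The 4 groups overlapped. Its log2 fold change had a 95% interval of -0.27 to 0.36 in Asxl1Tg, -0.13 to 0.50 in Srsf2P95H and -0.41 to 0.22 in DM. Hoxb4 had the smallest SE of the members (0.16 in each group), and its intervals leave out a doubling in any mutant group. Hoxb3, a partner of Hoxb4 in the proliferation of mouse stem cells, averaged 3.09 ± 0.839 CPM in Asxl1Tg, 2.96 ± 0.688 in Srsf2P95H, 3.34 ± 0.899 in DM and 2.68 ± 0.325 in WT. Its interval in DM was -0.14 to 0.78 (edgeR adjusted p = 0.377). Reads of the exons it shares with Hoxb3os may have been left out of its counts or misassigned.

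Hoxb2, a hindbrain patterning gene at the anterior side of the cluster, had 1.36, 1.23, 1.47 and 0.992 CPM in the Asxl1Tg mice, 1.0, 1.33, 1.07 and 0.794 in the Srsf2P95H mice, 1.30, 1.26, 1.67 and 1.17 in the DM mice, and 1.19, 0.216, 0.431 and 0.398 in the WT mice. WT replicate 1 lay within the mutant range and the other 3 WT libraries lay below all mutant libraries. Hoxb2 rose 2.42-fold in DM (log2 1.27, SE 0.37, edgeR adjusted p = 0.0438). Without WT replicate 1 the Hoxb2 log2 value was 1.94 (edgeR adjusted p = 0.00116), and without WT replicate 4 it was 1.14 (edgeR adjusted p = 0.107). The Hoxb2 call also ended without any 1 of the DM libraries, WT 2 or 3, Asxl1Tg 1 or 4, or Srsf2P95H 1 or 3, with log2 values of 1.01 to 1.34. Hoxb1, a hindbrain gene at the 3' end, had 0 or 1 count in each library, with sums of 1 count in Asxl1Tg, 1 in Srsf2P95H, 2 in DM and 1 in WT, so no difference was detectable at this depth. Hoxb13, which lies on the far 5' side of the cluster, also had 0 or 1 count in each library.

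In Srsf2P95H the absence of a call depended on the test and on single libraries. Although edgeR called 0 of 8 members against WT, 5 of 8 had an unadjusted p under 0.05, as did 25.3% of all tested genes. DESeq2 called 3 members (Hoxb5, Hoxb6 and Hoxb8), with an adjusted p of 0.00189 for Hoxb5 and 0.00784 for Hoxb8, and limma-voom with quality weights called the same 3 members. These tools also called more of all genes in Srsf2P95H, 2602 in DESeq2 and 1633 in limma-voom against 115 in edgeR. Within edgeR's test, 3 members were called without WT replicate 1, 2 without Srsf2P95H replicate 2 and 1 without Asxl1Tg replicate 2. The count of all genes called in Srsf2P95H varied from 0 to 2792 over the alternative fits, around 115 in the fit used here.

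The double mutants were then set against each single mutant. Against Asxl1Tg, 0 of 8 members were called in edgeR's test, beside 1.08% of all tested genes, and 0 had an unadjusted p under 0.05, as did 17.8% of all tested genes. DESeq2 and limma-voom also called 0 members. The log2 difference of Hoxb8 was 0.30 with a 95% interval of -0.49 to 1.10, and that of Hoxb5 was 0.42 (-0.03 to 0.87), intervals that still allow a doubling of Hoxb8 and a rise of Hoxb5. Against Srsf2P95H, 0 of 8 were called in edgeR's test, beside 0.246% of all tested genes, and 1 had an unadjusted p under 0.05, beside 6.48% of all tested genes. That member was Hoxb8, with a log2 difference of 1.52 (SE 0.42, 95% interval 0.70 to 2.34), a fold of 2.87. The 4 DM libraries (1.18 to 2.41 CPM) lay above the 4 Srsf2P95H libraries (0.241 to 0.779 CPM), as held for 2.86% of all tested genes, yet the adjusted p was 0.236 in edgeR's test. In DESeq2 the adjusted p of Hoxb8 was 0.0160, and limma-voom called 0 members.

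The interaction asks whether the effect of both lesions together differs from the sum of the single effects on the log2 scale. No member was called in edgeR's test, nor was any of the 22749 genes (0% called, smallest adjusted p 0.0851), although 2670 genes had an unadjusted p under 0.05. DESeq2 and limma-voom called 0 members. The interaction value of Hoxb8 was -1.26 (SE 0.59, 95% interval -2.42 to -0.09, edgeR unadjusted p = 0.0499, adjusted p = 0.426). The value of Hoxb9 was -0.88 (edgeR adjusted p = 0.636) and that of Hoxb2 was -0.82 (edgeR adjusted p = 0.560).

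Pooling the 8 carriers of the Asxl1 transgene (Asxl1Tg and DM) against the 8 mice without it (Srsf2P95H and WT), 3 of 8 members rose in edgeR's test, beside 1.85% of all tested genes called and 1.4% called higher. Hoxb8 rose 4.43-fold (log2 2.15, SE 0.31, edgeR adjusted p = 0.000861), and its 8 carrier libraries did not overlap the other 8, as held in the higher direction for 0.462% of all tested genes. Hoxb9 rose by 1.35 on the log2 scale (edgeR adjusted p = 0.0449) and Hoxb5 by 0.66 (edgeR adjusted p = 0.0470). Both lay at the threshold: 12 of the 16 fits without 1 library ended the Hoxb9 call and 13 ended the Hoxb5 call. Without WT replicate 4 the Hoxb9 value was 1.42 (edgeR adjusted p = 0.0511). In the same pooling for the Srsf2 mutation (Srsf2P95H and DM against Asxl1Tg and WT), 2 of 8 members rose, beside 10.6% of all tested genes called and 6.57% called higher. These were Hoxb5 (log2 0.69, SE 0.16, edgeR adjusted p = 0.0176) and Hoxb9 (log2 1.09, SE 0.33, edgeR adjusted p = 0.0448), and 13 of the 16 fits without 1 library ended the Hoxb9 call. Without WT replicate 4 this Hoxb9 value was 1.16 (edgeR adjusted p = 0.0537). Hoxb8 had a pooled log2 value of 0.93 for the Srsf2 mutation (SE 0.30, edgeR adjusted p = 0.0547). Hoxb4 had pooled values of -0.12 for the transgene and 0.02 for the mutation, with edgeR adjusted p of 0.649 and 0.918.

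The shares of the members in the cluster's output were not tested and are given as a description. The summed level of the Hoxb genes was 18.2 ± 1.86 CPM in Asxl1Tg, 17.9 ± 1.83 in Srsf2P95H, 19.5 ± 3.45 in DM and 13.6 ± 3.05 in WT. Hoxb4 gave 43.6% ± 3.90 of that sum in Asxl1Tg, 48.5% ± 6.29 in Srsf2P95H, 37.2% ± 4.95 in DM and 56.3% ± 2.29 in WT (SD, n = 4 each). The mean Hoxb4 share was lower in each mutant group than in WT, and in Srsf2P95H the mice overlapped WT. Hoxb8 gave 6.90% ± 1.03 in Asxl1Tg, 3.00% ± 1.15 in Srsf2P95H, 7.85% ± 1.59 in DM and 1.26% ± 0.599 in WT, and the Srsf2P95H mice again overlapped WT. Hoxb5 gave 15.0% ± 0.829, 15.5% ± 2.38 and 18.5% ± 2.19 in the same 3 mutant groups, against 10.5% ± 0.748 in WT. These shares are not corrected for gene length.

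**Figure D4:**
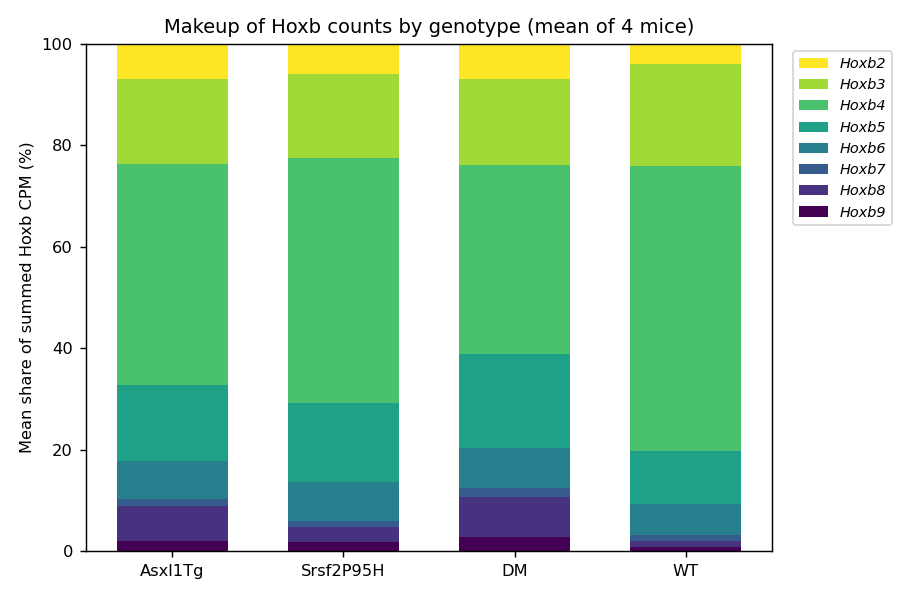
Mean share of each Hoxb gene in the summed Hoxb CPM of a library, in percent, stacked to the full sum for Asxl1Tg, Srsf2P95H, DM and WT (4 mice each). The Hoxb4 share is 37.2% in DM and 56.3% in WT, and the Hoxb8 share is 7.85% in DM and 1.26% in WT.

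Of the 4 non-coding genes with levels high enough to plot, Gm53 and Hoxb5os rose in DM and Asxl1Tg. Gm53, a long non-coding RNA on the same strand 5' of Hoxb9 (96251105 to 96264868), had 0.513, 0.898, 0.238 and 0.370 CPM in the Asxl1Tg mice, 0.290, 0.287, 0.516 and 0.464 in the Srsf2P95H mice, 1.10, 1.41, 2.03 and 0.806 in the DM mice, and 0.219, 0.0600, 0.0705 and 0.109 in the WT mice. Every mutant library was above every WT library. Taken by group, such separation held for 3.7% of all tested genes in Asxl1Tg, 8.33% in Srsf2P95H and 9.28% in DM. Gm53 rose 11.7-fold in DM (log2 3.54, SE 0.48, edgeR adjusted p = 0.00102) and 4.41-fold in Asxl1Tg (log2 2.14, SE 0.47, edgeR adjusted p = 0.0293). Its log2 value in Srsf2P95H was 1.77 (edgeR adjusted p = 0.0580). The Gm53 call in Asxl1Tg ended without Asxl1Tg 1 or 4 or WT 2, 3 or 4, with log2 values of 1.95 to 2.27. The Gm53 log2 difference of DM from Asxl1Tg was 1.40 (SE 0.43) and did not pass edgeR's test (adjusted p = 0.109), whereas it passed in DESeq2 (0.0309) and limma-voom (0.0329). Against Srsf2P95H, Gm53 in DM differed by 1.77 without overlap of the libraries, as held in the higher direction for 2.86% of all tested genes. The adjusted p was 0.149 in edgeR and 0.00812 in DESeq2. Gm53 and Gm11536 were added to the locus list after the table was seen.

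Hoxb5os, antisense to the stretch from Hoxb6 to Hoxb5, averaged 2.11 ± 0.525 CPM in Asxl1Tg, 2.06 ± 0.830 in Srsf2P95H, 2.74 ± 0.584 in DM and 0.826 ± 0.322 in WT. It rose 3.31-fold in DM (log2 1.73, SE 0.33, edgeR adjusted p = 0.00716) and 2.55-fold in Asxl1Tg (log2 1.35, SE 0.32, edgeR adjusted p = 0.0421). The Asxl1Tg call of Hoxb5os ended in 10 of the 16 fits without 1 library, and without WT replicate 4 the Hoxb5os value was 1.27 (edgeR adjusted p = 0.121). The log2 value of Hoxb5os in Srsf2P95H was 1.32 (edgeR adjusted p = 0.0547). Hoxb3os averaged 0.569 ± 0.324 CPM in Asxl1Tg, 0.802 ± 0.156 in Srsf2P95H, 0.744 ± 0.214 in DM and 0.430 ± 0.181 in WT, and Gm11536 0.485 ± 0.0863, 0.286 ± 0.174 and 0.283 ± 0.0873 in the mutant groups in that order and 0.401 ± 0.269 in WT. Neither was called against WT in edgeR's test.

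The counts of the Mir196a-1 row were few: 0, 13, 1 and 1 in the Asxl1Tg mice, 2, 2, 1 and 6 in the Srsf2P95H mice, 14, 9, 20 and 11 in the DM mice, and 0, 9, 0 and 0 in the WT mice. The DM libraries were the only group with at least 9 counts in every mouse, but 1 WT library also held 9. The log2 value in DM was 2.19 with an SE of 1.14 (edgeR adjusted p = 0.202). The preparation was not one for small RNA, so these counts do not measure the mature microRNA shown with its Hoxb8 site. Outside the cluster, the nearest genes with substantial levels (Snx11, Cbx1, Nfe2l1, Atp5g1 and Ube2z among them) were not called in any of the mutant groups against WT. Atp5g1 had log2 values of 0.42 in Asxl1Tg, 0.43 in Srsf2P95H and 0.37 in DM (edgeR adjusted p = 0.148, 0.115 and 0.133).

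**Figure D5:**
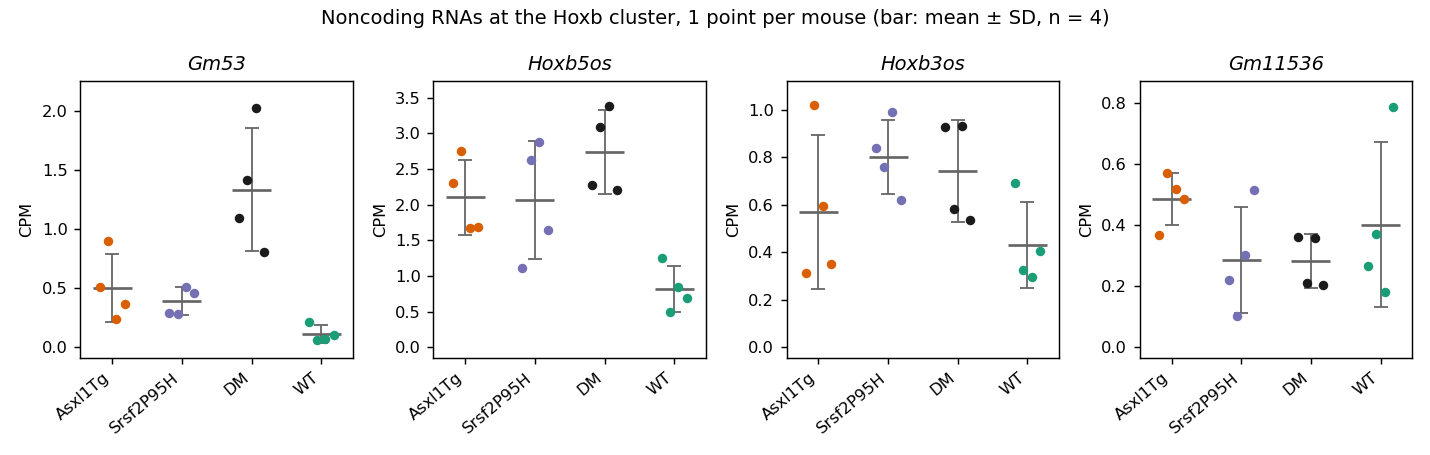
CPM of the non-coding genes Gm53, Hoxb5os, Hoxb3os and Gm11536 in each mouse (dots) with the group mean and SD (bars), groups in the order Asxl1Tg, Srsf2P95H, DM, WT and 4 mice each. All DM dots of Gm53 (0.806 to 2.03 CPM) lie above the WT dots (0.0600 to 0.219 CPM), as held for 9.28% of all tested genes.

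Members varied together to different degrees over the 16 libraries. The correlation of log2 CPM was 0.914 for Hoxb8 with Hoxb9 and 0.775 after group means were removed. It was 0.862 for Hoxb5 with Hoxb8, and 0.625 within groups. Hoxb5 with its antisense neighbour Hoxb5os gave 0.911, and 0.667 within groups. Hoxb4 had correlations to the other tested members of 0.158 to 0.477, and of 0.243 to 0.731 within groups, where the highest were with Hoxb7 (0.731) and Hoxb8 (0.651). Hoxb7, which edgeR did not call, followed Hoxb8 within groups, at 0.925. The points share their libraries and the group differences, and the low counts of Hoxb7 and Hoxb9 add counting error.

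Likeness was measured over all 16 libraries, group differences included, so the changes of the genes it picks restate that choice and are given without tests. Among 12087 genes with a mean of at least 1 CPM, those whose log2 CPM was most like that of Hoxb8 over the 16 libraries were Dcbld1 (r = 0.960), Dzip1l (0.949) and Plod2 (0.943). Dzip1l had log2 fold changes of 4.23 in Asxl1Tg, 1.66 in Srsf2P95H and 4.53 in DM, and Dcbld1 had 1.62, 0.76 and 1.80 in the same groups. Hoxb5 was most like Pros1 (0.915), Fzd1 (0.909) and Fat1 (0.904), and Pros1, an anticoagulant plasma protein, had a log2 value of 1.16 in DM. Hoxb4 was most like Slfn2 at 0.866, followed by Slc17a9 at 0.742 and Ftx at 0.728. The best match of Hoxb9 was Ltbp4 (0.872), that of Hoxb2 Gbx2 (0.908), that of Hoxb6 Matn4 (0.840), that of Hoxb7 Cldn12 (0.860) and that of Hoxb3 Neil2 (0.807).

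The other Hox clusters gave no calls against WT in edgeR's test. Of the 11 Hoxa genes 9 were tested, and edgeR called 0 in each of the 3 mutant groups, with 3 at an unadjusted p under 0.05 in Asxl1Tg, 3 in Srsf2P95H and 4 in DM, beside 21.5%, 25.3% and 30.6% of all tested genes. Their median log2 fold changes were -0.39 in Asxl1Tg, -0.29 in Srsf2P95H and -0.33 in DM, below 0 where the Hoxb medians were above it. Hoxa9, a gene needed for normal stem cell function and overexpressed in myeloid leukaemia, averaged 43.8 ± 5.47 CPM in Asxl1Tg, 47.2 ± 6.63 in Srsf2P95H, 45.8 ± 2.38 in DM and 57.7 ± 8.22 in WT. Its log2 values of -0.40, -0.29 and -0.33 did not pass edgeR's test (adjusted p = 0.0723, 0.128 and 0.0674). DESeq2 called Hoxa9 lower in Asxl1Tg and in DM, and in DM Hoxa5 as well, limma-voom called the pair lower in DM only, and neither called any Hoxa gene higher against WT. Of 9 Hoxc genes 4 were tested and edgeR called 0 against WT, while DESeq2 and limma-voom called Hoxc6 higher in Srsf2P95H and DM. The Hoxc medians were 2.13 in Asxl1Tg, 2.65 in Srsf2P95H and 1.99 in DM, with 4 of 4 above 0 in each, from low levels: the 9 Hoxc genes summed to a median of 0.569 CPM in Asxl1Tg, 0.990 in Srsf2P95H, 0.832 in DM and 0.163 in WT. A gene entered the test if at least 4 libraries of any group reached the filter's level. Hoxc10 had 0 to 2 counts per WT library, so only mutant libraries could carry it in. The sign of such a gene against WT was largely set by the filter, so the medians and signs of this list are a description only. In edgeR, Hoxc6 rose by 1.52 in the pooled comparison for the Srsf2 mutation (edgeR adjusted p = 0.0395), 1 of 4 tested beside 10.6% of all tested genes. That call ended in 17 of 27 alternatives, and the highest Hoxc6 level was 1.90 CPM, in Srsf2P95H replicate 2. All 9 Hoxd genes were too low to test. Differences between the Hox lists were not tested.

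Lists of known partners and regulators were counted in the same fit. Over all genes DESeq2 called 1872 in Asxl1Tg, 2602 in Srsf2P95H and 3914 in DM, and limma-voom called 1091, 1633 and 4320. In edgeR these counts were 428, 115 and 2135. Of 9 TALE cofactors, the homeodomain proteins that bind DNA with Hox proteins, 8 were tested and edgeR called 0 against WT. In Asxl1Tg, Srsf2P95H and DM, 1, 4 and 3 had an unadjusted p under 0.05, beside 21.5%, 25.3% and 30.6% of all tested genes. DESeq2 called Meis3 lower in Srsf2P95H and Meis2 higher in DM, and limma-voom called 0. In the pooled comparison for the Srsf2 mutation edgeR called 2 of the 8, beside 10.6% of all tested genes. Meis3 fell by 0.71 (edgeR adjusted p = 0.0224) and Meis2 rose by 1.21 (edgeR adjusted p = 0.0285). The Meis3 call held in all 28 alternatives and the Meis2 call ended in 9 of 27. Meis1 averaged 242 CPM in Asxl1Tg, 229 in Srsf2P95H, 240 in DM and 259 in WT. Of 26 Polycomb genes, 2 were called in DM, no larger a share than the 9.39% of all tested genes: Cbx7 fell by 0.71 (edgeR adjusted p = 0.0116) and Phf19 rose by 0.28 (edgeR adjusted p = 0.0465). The Phf19 call ended in 18 of 29 alternatives. In the single mutants edgeR called 0 of the 26 Polycomb genes. An unadjusted p under 0.05 was seen for 10 in Asxl1Tg and 8 in Srsf2P95H, beside 21.5% and 25.3% of all tested genes. In Srsf2P95H DESeq2 called 6 Polycomb genes and limma-voom 4. Pcgf2, a Polycomb ring finger subunit, rose by 0.48 with the Asxl1 transgene in the pooled comparison (edgeR adjusted p = 0.0138), 1 call of 26 beside 1.85% of all tested genes. With the Srsf2 mutation 3 of 26 were called, beside 10.6% of all tested genes. Cbx7 fell by 0.51, and the methyltransferase gene Ezh2 and its partner Suz12 rose by 0.26 each (edgeR adjusted p = 0.00963, 0.0157 and 0.0346). The Suz12 call ended in 12 of 28 alternatives, that of Ezh2 in 1 and that of Cbx7 in 0. Of 22 Trithorax genes 19 were tested and edgeR called 1 in DM: the H3K27 demethylase gene Kdm6b fell by 0.79 (edgeR adjusted p = 0.0408), a call that ended in 10 of 29 alternatives. That is again no larger a share than over all genes. DESeq2 called 5 Trithorax genes in DM and limma-voom 6, and each called 3 in Srsf2P95H. In the pooled comparison for the Srsf2 mutation edgeR called 2 of the 19, beside 10.6% of all tested genes. Ash2l rose by 0.18 (edgeR adjusted p = 0.0297) and Psip1 by 0.23 (edgeR adjusted p = 0.0360). These calls ended in 11 and 13 of 28 alternatives. Of 11 genes of Asxl proteins, Bap1 and their partners, edgeR called 0 against WT. In Asxl1Tg, Srsf2P95H and DM, 2, 2 and 3 had an unadjusted p under 0.05, beside 21.5%, 25.3% and 30.6% of all tested genes. DESeq2 and limma-voom called Mbd5 lower in Asxl1Tg and Asxl2 lower in DM, and limma-voom also Mbd6 lower in DM. Of 18 genes of the retinoid pathway, an upstream signal of Hox genes in embryos, 13 were tested and edgeR called 0 against WT. In Asxl1Tg, Srsf2P95H and DM, 0, 6 and 4 had an unadjusted p under 0.05, beside 21.5%, 25.3% and 30.6% of all tested genes. DESeq2 called 0 of the 13 in Asxl1Tg, 3 in Srsf2P95H (Dhrs3, Rara and Rxra, lower) and 3 in DM (Aldh1a1 higher, Cyp26c1 and Rara lower). In the same groups limma-voom called 0, 1 (Dhrs3) and 2 (Aldh1a1 and Cyp26c1). With the Srsf2 mutation in the pooled comparison edgeR called 2 of the 13, beside 10.6% of all tested genes. Rara fell by 0.60 (edgeR adjusted p = 0.0289) and Aldh1a1 rose by 1.08 (edgeR adjusted p = 0.0296). These calls ended in 8 and 11 of 28 alternatives.

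Because Hoxb5 and other members are higher in long-term stem cells, stem cell markers were set beside these results, in a list that holds Hoxa9 and Meis1 but no Hoxb gene. Of 23 tested, 4 rose in DM in edgeR's test (Esam 0.74, Slamf1 1.03, Tek 0.95 and Ctnnal1 0.53 on the log2 scale), with a list median of 0.13, beside 4.65% of all tested genes called higher, and 0 were called in either single mutant. At an unadjusted p under 0.05 there were 9 in Asxl1Tg and 8 in Srsf2P95H, beside 21.5% and 25.3% of all tested genes. DESeq2 called 5 in Asxl1Tg and 3 in Srsf2P95H, and limma-voom called 2 and 0. Over all genes DESeq2 called 1872 and 2602 in these groups, and limma-voom 1091 and 1633. The summed level of the list was 1615 to 2374 CPM in Asxl1Tg, 1861 to 2399 in Srsf2P95H, 2199 to 2705 in DM and 2085 to 2595 in WT, so the groups overlapped. Some markers of other blood cells were called in DM in edgeR's test, beside 9.39% of all tested genes. The megakaryocyte genes Itgb3 (0.95) and Itga2b (0.48), 2 of 10, the neutrophil gene Cxcr2 (0.87), 1 of 11, and Nkg7 (0.57) rose. The lymphoid genes Lck (-0.93) and Ncr1 (-4.32) fell, so that 3 of 14 T and NK genes changed. In this test 0 genes of the B lineage, eosinophil, mast cell, monocyte and erythroid lists were called. DESeq2 called 5 B lineage and 6 eosinophil genes lower in DM, where limma-voom called 0. Of 29 alternatives, 12 ended the Itgb3 call, 17 the Itga2b call, 11 the Cxcr2 call and 20 the Nkg7 call. The Lck call ended in 4 of 29 and the Ncr1 call in 5 of 28. The part of these markers in the Hoxb levels was not tested one by one. The stem cell covariate, an alternative added after the data were seen, was the mean log2 CPM of the list and not its summed level. With this covariate Hoxb8 had log2 values of 2.94 in Asxl1Tg and 2.74 in DM, with edgeR adjusted p of 0.00195 and 0.00147. In that fit 3 members were called in DM, since Hoxb2 (1.11, edgeR adjusted p = 0.0560) and Hoxb6 (0.65, edgeR adjusted p = 0.0583) no longer passed, and 4 were called in each single mutant. Calls over all genes rose as well: that fit called 5100 of 22749 genes in DM, 833 in Asxl1Tg and 2792 in Srsf2P95H. Without the covariate these counts were 2135, 428 and 115.

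Stromal cells of the marrow also express Hox genes, so their markers were measured as well, and all 15 of the list were detected. The stromal and endothelial list summed to 216 to 286 CPM in Asxl1Tg, 233 to 393 in Srsf2P95H, 216 to 264 in DM and 273 to 334 in WT, and Runx2, Pdgfrb and Emcn made up most of it. Of the 15 genes, 0 were called higher against WT in edgeR's test, in DESeq2 or in limma-voom, and Runx2 fell by 0.42 in Asxl1Tg in edgeR's test, a call that ended in 19 of 29 alternatives. At an unadjusted p under 0.05 in either direction there were 2 in Asxl1Tg, 2 in Srsf2P95H and 3 in DM. Over all tested genes these shares were 21.5%, 25.3% and 30.6%. The mesenchymal gene Lepr averaged 0.172 CPM in Asxl1Tg, 0.297 in Srsf2P95H, 0.205 in DM and 0.485 in WT. The bone collagen gene Col1a1 varied between mice from 1.81 to 50.4 CPM in Asxl1Tg, 0.556 to 112 in Srsf2P95H, 1.16 to 41.9 in DM and 0.102 to 10.7 in WT. Its mean was higher in the mutant groups, at 23.9, 32.5 and 18.2 CPM in that order, than in WT at 3.72 CPM, with ranges that overlapped. The stromal covariate, also added after the data were seen, was likewise the mean log2 CPM of the list and not its sum. With this covariate Hoxb8 had log2 values of 2.78 in Asxl1Tg and 3.11 in DM, with edgeR adjusted p of 0.00556 and 0.00191. The counts of called members were then 2 in Asxl1Tg, 0 in Srsf2P95H and 5 in DM, equal to those without the covariate.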

How the data were processed

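RNA-seq reads were trimmed with Trimmomatic 0.38, aligned to mm10 with STAR 2.7.0e and counted with HTSeq 0.11.2, per the submitters' processing notes. The annotation release, and whether strand was used, is not given in the sources used here. The authors deposited raw counts per gene for 16 libraries of paired-end reads, 4 mice per group. The Asxl1Tg columns were matched to their titles by elimination. Counts were filtered with filterByExpr (minimum count 10), scaled by TMM and fitted in 1 model over all libraries with edgeR 4.0.16 (R 4.3.3) by quasi-likelihood, with Benjamini-Hochberg adjustment and a threshold of 0.05. DESeq2 1.42.0 and limma-voom (limma 3.58.1) were alternatives, and the other settings are given in the closing section. Intervals are 95%. CPM in the text divides a deposited count by the library size after TMM scaling. Correlations used log2 CPM with a prior count of 2, and the 3 genes most like each member were named. The 9 members and all gene lists were chosen with earlier results of these data known. Positions come from GENCODE gene models and sequences from RefSeq, both on GRCm38. Sequences of 3 promoters were matched. In data simulated for DM against WT over 22749 genes, the fit called 36 of 50 genes at 0.1 to 8 CPM changed by 4-fold and 6 of 50 changed by 2-fold. Far fewer genes changed there than in the data, with 142 calls in all against 2135 in DM. The adjustment was therefore stricter in the simulation, and its rates may be too low for DM.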

Additional observations from a re-analysis of the deposited data

Results flagged for a closer look

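In 32 groups of 4 mice (8 members in 4 genotypes), the highest or lowest mouse was set against the other 3, a check that flags about 1 in 20 groups by chance. Hoxb4 in Srsf2P95H replicate 4 was at 11 CPM, far from the 7.74 to 8.06 of the other 3 mice, with a gap of 0.902 of the group's range. Hoxb6 in WT replicate 4 was at 1.18 CPM, far from the 0.674 to 0.720 of the other 3, with a gap of 0.908 of the range. WT replicate 4 is also the library with the high B lineage and eosinophil markers, and their part in its Hoxb6 level was not tested. Without that library, Hoxb6 in DM had a log2 fold change of 1.15 (edgeR adjusted p = 0.0228), against 0.92 with it.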

How the results depend on the processing

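The alternatives moved the number of called Hoxb genes, and no named log2 value that was called in the model used changed sign. Values not called there, such as those of Hoxb4 near 0, were not followed for sign. Against WT, Asxl1Tg had 2 members called in the model used, 5 in DESeq2, and 4 in limma-voom with quality weights and with the stem cell covariate. It had 1 each with library size only, no filter, the compared groups only, and without both WT 4 and Srsf2P95H 2. Over all genes Asxl1Tg had 428 calls in the model used, 1872 in DESeq2, 1091 in limma-voom and 833 with the stem cell covariate. In the settings with 1 member these were 324, 369, 73 and 212 in that order. Srsf2P95H had 0 members called, against 3 in DESeq2 and in limma-voom, 4 with the stem cell covariate and 1 with the marker covariate. Over all genes Srsf2P95H had 115 calls in the model used, 2602 in DESeq2 and 1633 in limma-voom. With the stem cell covariate it had 2792, and with the marker covariate 127. DM had 5 members called, and 3 with library size only, the compared groups only and the stem cell covariate. Over all genes DM had 2135 calls in the model used, and 2043, 1638 and 5100 in those settings. DM against Srsf2P95H had 0 members called, and 1 in DESeq2, where the calls over all genes went from 56 to 234. The Asxl1 transgene had 3 members called, and 1 with library size only and without both doubted libraries. Over all genes it had 420 calls in the model used, and 363 and 329 in those settings. The Srsf2 mutation had 2 members called, and 4 in limma-voom and with the marker covariate. It had 1 with library size only, no filter, at least 1 CPM in 4 samples, and the Xist, stromal and stem cell covariates. Over all genes it had 2420 calls in the model used, 3523 in limma-voom and 2413 with the marker covariate. In the settings with 1 member these ran from 1443 with no filter to 4361 with the stem cell covariate. With 1 library left out at a time, the counts of called members ran from 1 to 3 in Asxl1Tg, 0 to 3 in Srsf2P95H, 3 to 5 in DM, 1 to 4 for the transgene and 1 to 4 for the mutation. The counts over all genes then ran from 121 to 2330, 0 to 1638, 586 to 2660, 312 to 658 and 914 to 3015 in that order. The stromal and stem cell covariates were chosen after seeing the data. The cause was not tested in any of these cases.

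With replicate number as a block, Srsf2P95H had 1 member called, while its calls over all genes went from 115 to 952. Replicate numbers did not pair the mice: correlations of same-numbered libraries ran from -0.293 to 0.295, 5 of 24 were over 0.1, and 3 of 16 libraries were most like one with their own number. Under the block Hoxb5 in Asxl1Tg had an edgeR adjusted p of 0.0562.

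Hoxb8 stayed called in Asxl1Tg (log2 2.48 to 3.34, 29 alternatives) and in DM (2.74 to 3.54), and so did Hoxb5 in DM (1.11 to 1.49) and Hoxb9 in DM (2.03 to 2.83, 28 alternatives). Hoxb5 in Asxl1Tg lost its call in 16 of 29, Hoxb2 in DM in 15 and Hoxb6 in DM in 11. In the pooled comparisons Hoxb9 lost it in 15 of 27 for the transgene and 18 of 27 for the mutation, and Hoxb5 in 17 of 28 for the transgene. Depth limits Hoxb7, Hoxb9 and Hoxb1 most, at 2 to 126 counts per library for Hoxb9.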
